A study of Bos grunniens x Bos taurus and Bos grunniens with 12 samples.

Results

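bta-miR-2478_L-2 is a cattle miRNA entry of these milk exosome libraries, 18 bases long, which ends in CCA, the triplet with which mature tRNAs end. Members were the entries whose name begins with bta-miR-2478 and then ends or goes on with a hyphen or a low line. The rule found 1 of 2263 entries, so miR-2478 was present as a single end variant and no comparison between end variants could be made. The suffix L-2 means that the sequenced form starts 2 bases after the 5′ end of the mature miRNA in miRBase. Small RNA was sequenced from exosomes (small vesicles) of milk, with 3 libraries in each of 4 groups. Jun_JY and Dec_JY are milk of Jeryak, the hybrid of Jersey cattle and yak, taken in June and in December, and Jun_Y and Dec_Y are milk of yak in the same months. All animals were lactating, 4 to 5 years old and received no treatment that the labels name, and the milk came from 1 place. The paper names 3 yaks and 3 Jeryaks as the source of the sequenced milk. It does not say outright whether the same animals were milked in June and December. A batch that followed the month cannot be told apart from it.

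A miRNA is cut from a hairpin precursor, is loaded into an Argonaute protein and pairs with target mRNAs through its seed, bases 2 to 8. A tRNA carries an amino acid to the ribosome, and the enzyme that completes its 3′ end adds CCA after transcription, so the triplet is not encoded in animal tRNA genes. Cleavage in the T loop of a mature tRNA releases short 3′ fragments that end in CCA, and fragments of tRNA are found in milk and in other body fluids. Several miRBase entries, among them miR-1260, miR-4454, miR-7977 and miR-1280, are known to resemble pieces of tRNA. The sequence of miR-2478 is that of the 3′ end of a leucine tRNA with its CCA, and miR-1260 resembles that of another leucine tRNA. No tRNA gene was used here for matching, so these likenesses are background and not results. The authors removed reads that matched known tRNA before the miRNAs were named, and 18 nt was the shortest length kept, so the values below describe only the copies that passed both steps.

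The sequence of bta-miR-2478_L-2 is shown first with its seed in capitals, to place it among miRNAs, and then beside 7 other 18 nt entries of the table with the final CCA in capitals, to show the end they share.
bta-miR-2478_L-2: aTCCCACTtctgacacca
bta-miR-2478_L-2: atcccacttctgacaCCA
hsa-miR-1260a_1ss9TG: atcccaccgctgccaCCA
bta-miR-1260b: atcccaccactgccaCCA
hsa-miR-4454_L-2: atccgagtcacggcaCCA
hsa-miR-7977_1ss6AG: ttcccggccaacgcaCCA
pal-miR-9995-3p: atctcggtggaacctCCA
pal-miR-9993a-3p: atctcggtgggacctCCA
hsa-mir-5100-p3_1ss17TC: atcccagcggtgcctCCA
Sequences are as the deposited table gives them, in DNA letters. The prefixes name the species of the miRBase precursor (bta cattle, hsa human, pal the flying fox Pteropus alecto), and 1ss marks 1 base that differs from it. No other entry had the seed of bta-miR-2478_L-2, contained its sequence or shared a run of 12 or more bases with it. Counted from 1 at the 5′ end of bta-miR-2478_L-2, hsa-miR-1260a_1ss9TG differed by T8C, T9G and A13C, which leaves a shared run of 7 bases and puts 1 of the differences into the seed. bta-miR-1260b differed by T8C, T9A and A13C. The nearest entry was mmu-miR-3968_L-2_1ss14AT, a 19 nt form named after a mouse precursor, whose last 18 bases differed by T9C alone, with a shared run of 9 bases. Of all entries, 305 (13.5%) were 18 nt long, 69 (3.05%) ended in CCA and 24 (1.06%) did both.

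The level is given as the norm value, the copy number of an entry multiplied by 1 correction factor per library. In Jun_JY the norm values of bta-miR-2478_L-2 were 539.6, 714 and 851 in replicates 1, 2 and 3, with a mean of 702 ± 156 (SD, n = 3). In Jun_Y they were 271, 399 and 437, with a mean of 369 ± 87.3 (SD, n = 3). The lowest Jun_JY library thus lay above the highest Jun_Y library. In Dec_JY the norm values were 100.3, 126 and 94.6 (mean 107 ± 16.6, SD, n = 3). In Dec_Y they were 126, 86.6 and 268 (mean 160.4 ± 95.6, SD, n = 3). The order of the groups was therefore Jun_JY, Jun_Y, Dec_Y, Dec_JY, and only the last 2 overlapped. Dec_Y was the most variable group, with a coefficient of variation of 59.6% against 15.5 to 23.7% in the others, and its replicate 3 lay just under the lowest June library.

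**Figure D1:**
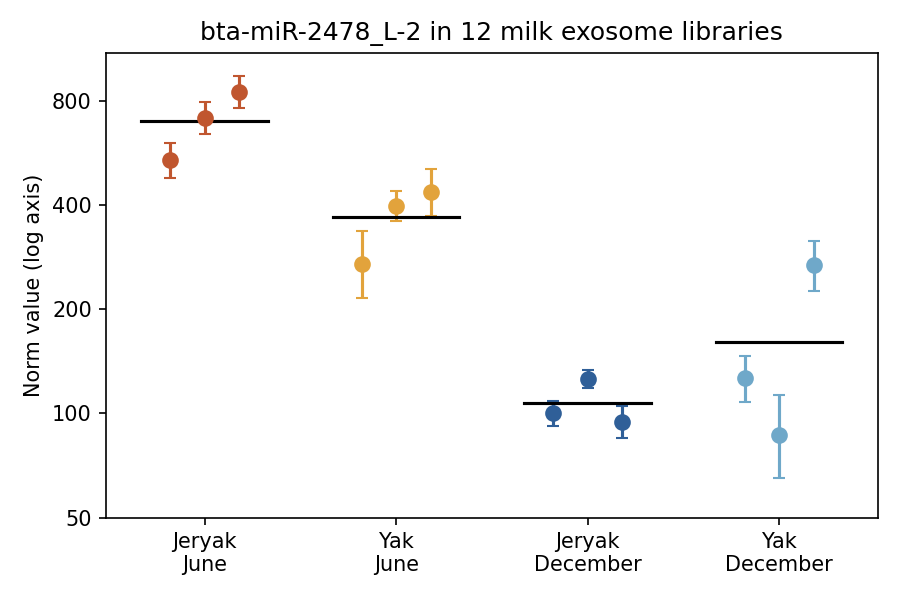
Norm value (log axis) of bta-miR-2478_L-2 in each of the 12 libraries, by group. Points are libraries, vertical bars are 95% exact Poisson intervals from the copies, which cover counting error only, and black lines are group means. All 6 June libraries (271 to 851) sit above all 6 December libraries (86.6 to 268). The share of all entries separated in this way was not counted.

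Norm values turned back into copies gave 292, 339 and 345 copies in Jun_JY and 82, 391 and 163 in Jun_Y. Dec_JY held 566, 991 and 351 copies, and Dec_Y held 53 to 173. In raw copies the Dec_JY libraries were thus above the Jun_JY libraries. The Dec_JY libraries were the deepest, with 2281110 to 6168480 copies over all entries against 247528 to 840850 in the other 9 libraries, and 1 copy was worth 0.127 to 0.269 norm units there and 0.730 to 3.30 elsewhere. The counting interval of a library reached from 6.28 to 27.9% of its value to either side on average. The interval of Jun_Y replicate 1 (215 to 336) overlapped that of Dec_Y replicate 3 (226 to 316), so these 2 libraries cannot be ordered at this depth. Copies made by PCR are not independent molecules, and the intervals cover counting error only.

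The share of the library, which does not use the authors' factors, gave the same order. bta-miR-2478_L-2 took 0.101 ± 0.0175% of the summed norm values in Jun_JY and 0.0526 ± 0.0169% in Jun_Y. It took 0.0158 ± 0.000367% in Dec_JY and 0.0269 ± 0.0165% in Dec_Y (SD, n = 3 each). Among the cattle entries of a library it ranked 56 to 63 from the top in Jun_JY and 67 to 81 in Jun_Y, against 123 to 136 in Dec_JY and 97 to 131 in Dec_Y. In this rank among cattle entries, as in the norm value, all June libraries stood above all December libraries. This did not hold for the share of the library or for the rank among all entries. In both of these, Jun_Y replicate 1 stood below Dec_Y replicate 3.

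The months were compared first, in each breed. In Jeryak (P2, Jun_JY against Dec_JY) bta-miR-2478_L-2 rose 6.45-fold in June (95% interval 3.32 to 12.5), a log2 fold change of 2.69 ± 0.44 (SE), with an adjusted p of 4.0e-04 in the limma fit over 620 entries with Benjamini-Hochberg adjustment. In that comparison 40.8% of the tested entries passed an adjusted p of 0.05, 28.9% higher and 11.9% lower in June. The libraries of both groups did not overlap, as for 46.9% of entries in either direction and 31% in this one. The entry stood 194th of 620 by log2 fold change but 7th of the 251 cattle entries tested. The median of the cattle entries was -0.56, and bta-miR-2478_L-2 lay 3.25 above it on the log2 scale, while the median over all 620 entries was 0.61. Among cattle entries 14 were higher and 50 lower in June.

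In yak (P4, Jun_Y against Dec_Y) the entry was 2.51-fold higher in June (95% interval 1.29 to 4.88), a log2 fold change of 1.33 ± 0.44 (SE) with an adjusted p of 0.034 in the same limma fit. Of the tested entries 34% passed in P4, 22.6% higher and 11.5% lower in June. The libraries of the groups did not overlap for 42.9% of entries, for 25.5% with June higher. bta-miR-2478_L-2 was 46th of the 251 cattle entries, whose median was -0.20. This call was not held by every setting. With the same sum in every library, which moves the median of all entries in P4 from 0.59 to 0.35, the log2 fold change was 1.08 (adjusted p = 0.078, limma). It was 1.26 without Jun_Y replicate 2 (adjusted p = 0.082), 1.19 without Jun_Y replicate 3 (0.087), 1.24 without Dec_Y replicate 1 (0.10) and 0.97 without Dec_Y replicate 2 (0.14), all from limma, and over all alternatives the adjusted p ran from 0.0097 to 0.20. In P2 it ran from 2.3e-04 to 0.0027.

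An exact permutation test over the 6 libraries gave p = 0.10 in P2 and in P4 (two-sided), the smallest value that 3 against 3 allows. Over both breeds together, permuting the months within each breed, June was 4.02-fold above December with a two-sided exact permutation p of 0.005, the smallest that the 400 arrangements allow. This pooled comparison was added after the values were seen.

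The breeds differed less. In June (P1, Jun_JY against Jun_Y) the log2 fold change was 0.93 ± 0.44 (SE), or 1.91-fold with a 95% interval of 0.98 to 3.71, and the adjusted p was 0.26 (limma). The entry did not pass, in a comparison in which 5% of entries did, 2.58% higher and 2.42% lower in Jeryak. The 3 Jeryak libraries were nonetheless all above the 3 yak libraries, as for 7.9% of entries (15.3% in either direction), and the exact permutation p was 0.10, the smallest possible. In December (P3, Dec_JY against Dec_Y) the log2 fold change was -0.43 ± 0.44 (SE), 0.742-fold with a 95% interval of 0.382 to 1.44, and the adjusted p was 0.84 (limma). In P3 5.97% of entries passed, 1.94% higher and 4.03% lower in Jeryak. The groups overlapped, while for 25% of entries they did not (13.5% with Jeryak higher), and without Dec_Y replicate 3 the difference was 0.02. The difference between P1 and P3, which is also that between P2 and P4 and so asks whether the June level rose more in Jeryak, was 1.36 (95% interval 0.00 to 2.72). Its unadjusted p was 0.049 and its adjusted p 0.27 (limma), where 5.48% of entries passed, 3.87% above and 1.61% below 0. A larger change in Jeryak was thus not established.

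**Figure D2:**
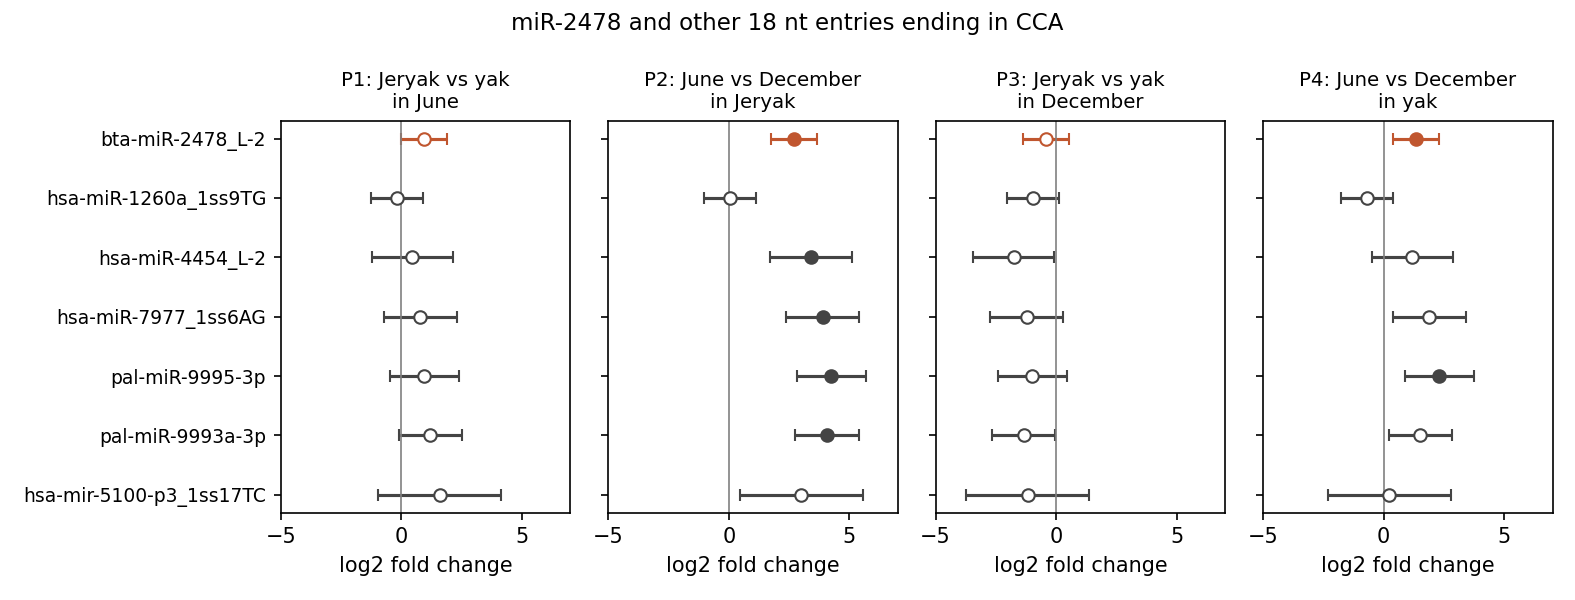
Log2 fold change with its 95% interval (limma) in P1 to P4 for bta-miR-2478_L-2 (orange) and 6 other 18 nt entries that end in CCA. Filled points passed an adjusted p of 0.05 and open points did not, and for bta-miR-2478_L-2 the point is filled in P2 (2.69) and P4 (1.33) only.

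Entries with the same kind of end were set beside it. Of the 23 other 18 nt entries ending in CCA, 15 passed the filter on low values, which asks for 10 norm units or more in 3 or more of the libraries. In P2, 8 of the 15 rose in June, none fell and 7 did not pass, with a median log2 fold change of 2.997. That share, 53.3%, is to be read beside the 28.9% of all entries that rose and the 49.1% (56 of 114) of tested 18 nt entries with other ends. The 8 include PC-5p-55668_98 and PC-3p-45290_127, predicted candidates that match no miRBase precursor. Both were at 0 in every December library and passed the filter only through June, so they could not stand higher in December. Without predicted candidates 6 of 12 rose in P2 (50%) and none fell. The shares above include predicted candidates, of which 61.7% rose in P2, against 5.58% of cattle entries and 29.4% of entries named after other species. In P4, 2 rose (13.3%), 1 fell and 12 did not pass, with a median of 0.62. Here the share that rose was below both the 22.6% of all entries and the 41.2% (47 of 114) of 18 nt entries with other ends. PC-3p-45290_127 was among the 2 that rose in P4, and without predicted candidates 1 of 12 rose (8.33%) and 1 fell. With predicted candidates included, leaving out each library in turn gave 6 to 9 entries that rose in P2 and 1 to 5 in P4, the 5 without Jun_Y replicate 1. In P1 none of the 15 passed in limma, nor at an unadjusted p of 0.05, and in P3 1 was lower in Jeryak. The entry lower in P3, which is also the 1 that fell in P4, was ggo-mir-4488-p5_1ss18TA. It passed the filter only through Dec_Y. Of the 29 other 18 nt cattle entries, 2 of which end in CCA, 12 were tested, and none rose while 3 fell in June in P2 and 8 in P4 (limma, with no entry higher at an unadjusted p of 0.05 either). The share that fell was 25% in P2 and 66.7% in P4, beside 11.9% and 11.5% of all entries that fell. An entry that passed the filter only through Dec_Y could not rise in P4. How many of the 12 did so was not counted, and 3 of them were also lower in Jeryak in P3 (median -2.03). Of the 251 cattle entries of any length tested, 50 fell in P2 and 36 in P4, so the share in P2 is near that of cattle entries. Without Jun_JY replicate 3 or Dec_JY replicate 3, 1 fell in P2, and without Jun_JY replicate 1, 1 rose there. Without Dec_Y replicate 1 or Dec_Y replicate 3, 5 fell in P4. Their median log2 fold change was -1.42 in P2 and -4.01 in P4.

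Among the named forms, the 2 flying fox entries resemble the 3′ end of a glutamine tRNA. pal-miR-9995-3p had norm values of 149.7, 452 and 512 in Jun_JY and 8.51, 28.9 and 17.4 in Dec_JY, and it rose by 4.24 on the log2 scale in P2 (adjusted p = 2.6e-04, limma). In yak its norm values were 116, 171 and 248 in June and 21.9, 25.3 and 66.2 in December, a log2 fold change of 2.31 (adjusted p = 0.016, limma). Leaving out predicted candidates, it is the 1 tested entry of this kind besides bta-miR-2478_L-2 that passed with June higher in both breeds. This rests on the threshold in P4. pal-miR-9993a-3p (1.52), oan-miR-1386 (1.60) and hsa-miR-7977_1ss6AG (1.89) did not pass there, with log2 fold changes above the 1.33 of bta-miR-2478_L-2. Without Jun_Y replicate 1, 4 of the 12 others rose in P4. Without Jun_Y replicate 3, Dec_Y replicate 1 or Dec_Y replicate 2 none did. pal-miR-9993a-3p, which differs from pal-miR-9995-3p by 1 base, had log2 fold changes of 4.08 in P2 (adjusted p = 1.8e-04) and 1.52 in P4 (adjusted p = 0.069, limma).

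hsa-miR-7977_1ss6AG, whose sequence resembles a glycine tRNA end, had norm values of 83.2, 137 and 109 in Jun_JY and 10.3, 3.87 and 6.20 in Dec_JY. In yak its norm values were 29.7, 79.5 and 102 in June and 7.30, 21.2 and 26.1 in December. Its log2 fold change was 3.88 in P2 (adjusted p = 7.6e-04) and 1.89 in P4 (adjusted p = 0.054, limma). hsa-miR-4454_L-2, which resembles a histidine tRNA end, was at 113, 54.7 and 126 in Jun_JY against 11.5, 7.11 and 5.66 in Dec_JY. It rose by 3.41 on the log2 scale in P2 (adjusted p = 0.0039) and had a log2 fold change of 1.19 in P4 (adjusted p = 0.26, limma). In Jeryak the June libraries of these 2 entries, as of bta-miR-2478_L-2, were all above the December libraries.

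hsa-miR-1260a_1ss9TG, the leucine tRNA-like entry closest to it among the well-measured ones, did not share this pattern. Its norm values were 88.7, 159 and 111 in Jun_JY, 80.9, 164 and 170.4 in Jun_Y, 137, 91.7 and 109 in Dec_JY and 121, 227 and 360 in Dec_Y. Every pair of the 4 groups overlapped. The log2 fold change was 0.06 in P2 (adjusted p = 0.93) and -0.71 in P4 (adjusted p = 0.30, limma). The list of miRBase names that resemble tRNA held 11 names, of which 5 had an entry. Taking only the highest entry of each name, 3 were tested (miR-1260a, miR-4454 and miR-7977). Of these 3, 2 rose in P2, where 28.9% of all entries did, and none passed in P4, where 22.6% of all entries rose. bta-miR-1260b, not the highest entry of its name, also passed the filter but not P2 or P4. At 0 to 18.8 in the 12 libraries it was too low to describe. Of 22 names listed as resembling other structural RNAs such as rRNA or snRNA, 12 entries were tested, and 5 (41.7%) rose and 2 fell in P2, 5 and 1 in P4. This list includes miR-5100, although its sequence resembles part of a threonine tRNA. Its entry mmu-miR-5100_L+2R-1 is among the 5 that rose in P2 and is the 1 that fell in P4. Of all entries 28.9% rose and 11.9% fell in P2, 22.6% and 11.5% in P4.

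The ratio of 2 entries within a library does not depend on how the library was scaled. The ratio of bta-miR-2478_L-2 to hsa-miR-1260a_1ss9TG was 4.49, 6.08 and 7.67 in Jun_JY (from lowest to highest) and 2.44, 2.57 and 3.35 in Jun_Y. In December it was 0.731, 0.869 and 1.37 in Dec_JY and 0.381, 0.746 and 1.04 in Dec_Y. Every June library thus held at least 2.44 times as much of bta-miR-2478_L-2 as of the other, and the December libraries held the pair at similar levels or less of it. The geometric mean ratio was 6.22 times as high in June as in December in Jeryak and 4.13 times in yak, and 2.15 times as high in Jeryak as in yak in June. Each of these 3 had an exact permutation p of 0.10 (two-sided, the smallest possible; 0.20 adjusted over 16 ratio comparisons, whose entries were chosen after their values were seen). In December the breeds differed 1.43 times (exact p = 0.50).

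Against pal-miR-9995-3p the ratio moved the other way. bta-miR-2478_L-2 was 1.58 to 3.60 times pal-miR-9995-3p in Jun_JY and 4.36 to 11.8 times in Dec_JY, so the flying fox entry rose more in June. The ratio in June was 0.324 of that in December in Jeryak and 0.494 in yak (exact permutation p = 0.10 each), and the breeds differed 0.994 times in June (exact p = 1.0). Against hsa-miR-7977_1ss6AG the June ratio was 0.380 of the December ratio in Jeryak (exact permutation p = 0.10) and 0.646 in yak (exact p = 0.50). Against pal-miR-9993a-3p it was 0.362 in Jeryak (exact permutation p = 0.10) and 0.864 in yak (exact p = 1.0). In yak the June and December libraries overlapped in both of these ratios. Within the 24 entries of 18 nt ending in CCA, bta-miR-2478_L-2 made up 24.6 to 34.8% of the summed norm value in Jun_JY and 22.6 to 31.3% in Dec_JY. It made up 20.2 to 29.2% in Jun_Y and 7.89 to 20.8% in Dec_Y. In Jeryak its share of this group of entries thus overlapped between the months, while the sum without it went from 248 to 343 in December to 1012 to 2188 in June. In yak the sum without it overlapped between the months, at 479 to 1136 in December and 657 to 1725 in June.

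**Figure D3:**
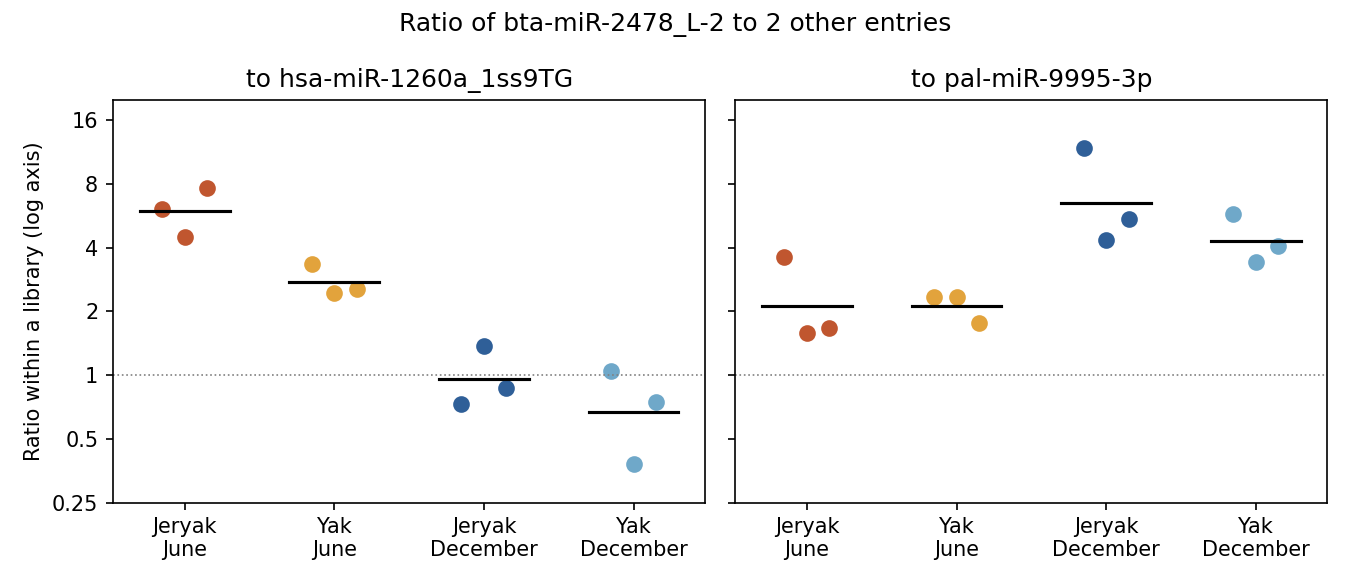
Ratio of bta-miR-2478_L-2 to hsa-miR-1260a_1ss9TG (left) and to pal-miR-9995-3p (right) within each library, on a log axis. Points are libraries, black lines geometric means and the dotted line a ratio of 1. Against hsa-miR-1260a_1ss9TG all June libraries are at 2.44 or more and all December libraries at 1.37 or less, and against pal-miR-9995-3p the December ratios are the higher ones within each breed.

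The nearest entry by sequence, mmu-miR-3968_L-2_1ss14AT, was far less abundant. Its norm values were 4.62, 22.1 and 16.04 in Jun_JY and 2.39, 0.698 and 3.10 in Dec_JY. It was at 0 in all 3 Jun_Y libraries, where 3 copies would have given 9.90, 3.06 and 8.05, and at 0, 0 and 12.1 in Dec_Y. The Jun_JY libraries were above 0 and the Jun_Y libraries were not, but P1 did not pass (adjusted p = 0.071, limma). The other 2 entries named after miR-3968 were below the filter and also at 0 in Jun_Y. Adding all 3 to bta-miR-2478_L-2 gave log2 fold changes of 2.70 in P2 and 1.31 in P4 and changed no call.

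The highest entries ending in CCA were predicted candidates, sequences that match no miRBase precursor and are named PC. PC-5p-4258_1795 had norm values of 771, 1366 and 2670 in Jun_JY and 987, 546 and 236 in Jun_Y, and it was at 0 in December but for 1.62 in Dec_JY replicate 3. PC-3p-2941_2601 ranged from 339 to 2277 in June and was at 0 in all 6 December libraries. bta-miR-2478_L-2 differed from these in that it was counted in every library of both months. oan-miR-1386, named after a platypus precursor, was at 181, 467 and 294 in Jun_JY against 23.0, 22.8 and 12.4 in Dec_JY, a rise of 3.89 on the log2 scale (adjusted p = 5.2e-04, limma). In yak it was at 72.6, 169 and 502 in June and 43.0, 67.0 and 74.6 in December. These groups overlapped, and P4 did not pass (1.60, adjusted p = 0.078, limma).

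**Figure D4:**
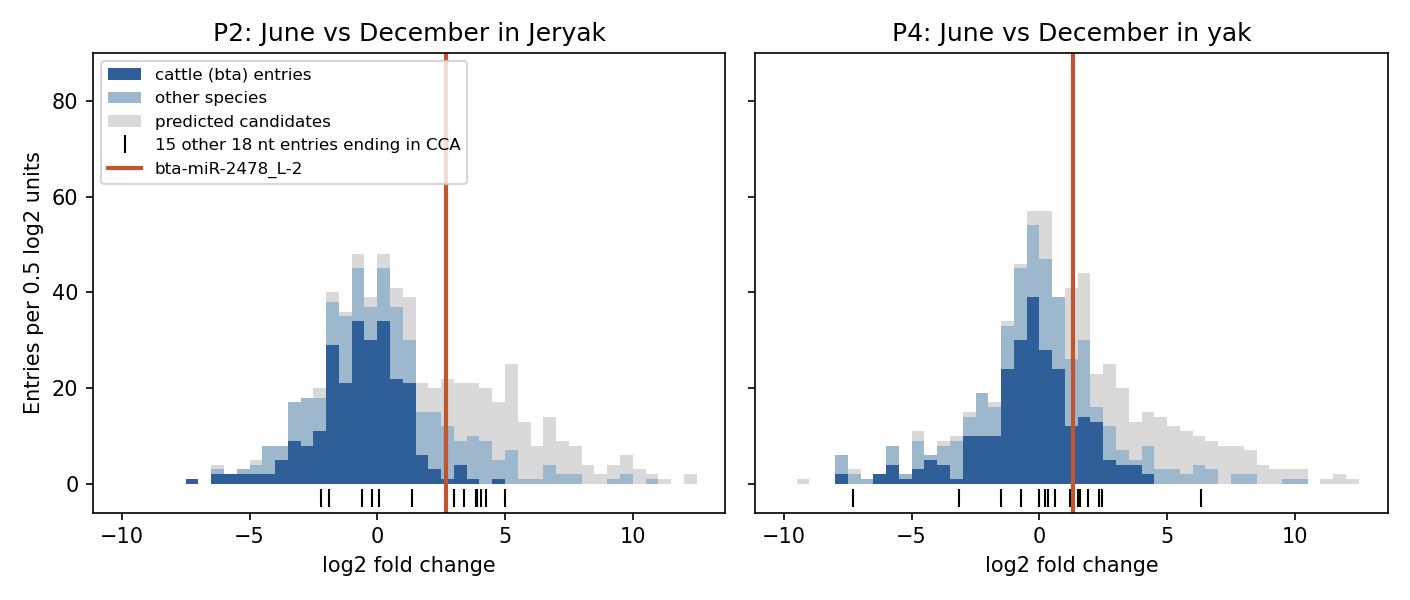
Number of tested entries per 0.5 log2 units against log2 fold change in P2 (left) and P4 (right), stacked by kind of entry. The orange line marks bta-miR-2478_L-2 (2.69 and 1.33), and ticks below 0 mark the 15 other 18 nt entries ending in CCA. In P2 the line lies near the upper end of the dark blue cattle entries, 7th of 251, and within the grey predicted candidates.

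The entries with the most similar pattern were found by the mean absolute difference of centred log2 values over the 12 libraries, which was 1.65 in the median over 619 entries. The 5 closest with a miRBase name were chi-miR-30f-3p_R-2_1ss8GA (0.50), bta-miR-186 (0.53), mmu-miR-5126_R-2_1ss18CT (0.58), bta-miR-320a (0.58) and bta-miR-2285t (0.60). pal-miR-9993a-3p was the 6th and hsa-miR-7977_1ss6AG the 11th. chi-miR-30f-3p_R-2_1ss8GA was at 131, 272 and 239 in Jun_JY and at 70.7, 32.7 and 46.9 in Dec_JY. bta-miR-186 stood much higher, at 19045, 25102 and 25799 in Jun_JY and 10548, 8094 and 8836 in Dec_JY. The similarity is one of pattern only, over libraries that share depth and month.

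Milk and blood markers were read as a check on the source of the RNA. All 8 miRNAs known to be abundant in milk were above 0 in all 12 libraries, and their summed norm values were 208938 to 455653. Of 6 leukocyte miRNAs 5 had an entry, and their sum was lower in June (88.8 to 233 in Jun_JY and 110 to 314 in Jun_Y) than in December (720 to 7930 in Dec_JY and 446 to 675 in Dec_Y). In June 3 of these 5 were above 0, and in December all 5. The 3 red blood cell miRNAs summed to 46.9 to 185 in Jun_JY against 15.4 to 22.6 in Dec_JY, and to 104 to 781 in Jun_Y against 39.2 to 173 in Dec_Y. Both lists moved with the month in Jeryak, as bta-miR-2478_L-2 did, and their part in its difference was not tested. The 3 skeletal muscle and liver miRNAs with an entry, of 4, summed to 4.62 to 174 over all libraries. Replicates correlated less across entries in June (r = 0.766 to 0.813) than in December (r = 0.941 to 0.974). In milk as a whole, fewer vesicles from a source and less of an RNA in each vesicle cannot be told apart.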

How the data were processed

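The deposited table holds norm values of 2263 entries in 12 libraries, a signal that the authors made with ACGT101-miR. They removed adapters and low-complexity reads, and those matching mRNA, RFam (tRNA included) or Repbase. Unique sequences (18 to 26 nt) were aligned with precursors of miRBase 22.0, with 1 mismatch and variable ends. The genome build was not given in the sources used here. Copy numbers were multiplied by 1 correction factor per library. One line of the table is not reported here.

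Norm values, as log2 after adding 1, entered limma 3.58.1 (trend, 1 mean per group, 12 libraries) in R 4.3.3, over 620 entries with at least 10 in at least 3 libraries, and passed at a Benjamini-Hochberg adjusted p of 0.05. A fold change on this scale understates that of low entries. Copies were recovered from the steps between values: 89.6 to 100% of predicted candidates, but only 73.7 to 85.9% of all entries, came out whole within 0.002 copies, so no count test was run. The script was tested on simulated data. Python 3.11.15, pandas 2.3.3, numpy 2.4.6, scipy 1.17.1 and matplotlib 3.10.9 were used.

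The entries named were the member, those sharing 12 or more bases with it, the highest entry of each tRNA-like name, the 4 highest others ending in CCA and the 5 most like it in pattern. Further entries (the pal and miR-5100 forms, miR-3968 and the ratios) were picked after their values were seen. The member, lists and tests were chosen with earlier results of these data known. Nothing in the labels says how the 3 libraries of a group were drawn, so p-values measure the spread between these libraries. Alternatives were other scalings, pseudocounts, minimum values, sets of libraries or entries, weights, a replicate block, the study's criteria and leaving out each library.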

Additional observations from a re-analysis of the deposited data

Results flagged for a closer look

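In 3 entries among those named or of the same sequence kind, the difference between Jeryak and yak was not the same in June as in December, by the interaction in limma. Of all 620 tested entries 34 (5.48%) passed it, and of the 15 other 18 nt entries ending in CCA 1 did. ggo-mir-4488-p5_1ss18TA, an 18 nt entry ending in CCA, had an interaction of 6.67 ± 1.07 (SE, adjusted p = 0.0069), with norm values of 92.7, 178 and 224 in Dec_Y and 0 to 0.888 in the other 9 libraries. It passed the filter on low values only through Dec_Y, the group that makes its interaction. Its p-value is therefore no independent support for a difference. mmu-miR-5100_L+2R-1 had an interaction of 6.37 ± 1.08 (SE, adjusted p = 0.0069). mmu-miR-5126_R-2_1ss18CT, whose pattern was the 3rd closest to that of bta-miR-2478_L-2, had an interaction of 3.26 ± 0.83 (SE, adjusted p = 0.042). The miR-5100 entry was picked after its values were seen and the miR-5126 entry by its pattern over the same libraries. Their p-values are thus no independent support either. bta-miR-2478_L-2 itself did not pass (1.36, adjusted p = 0.27).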

How the results depend on the processing

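For bta-miR-2478_L-2, P2 passed and P1 and the interaction did not pass under every alternative run (25, 25 and 22), with log2 fold changes of 2.54 to 2.87 in P2, 0.72 to 1.11 in P1 and 0.91 to 1.72 for the interaction. P4 no longer passed with the same sum in every library (1.08, adjusted p = 0.078), with no minimum (1.33, 0.14), with only the 6 libraries compared (1.33, 0.11), with cattle entries alone (1.33, 0.057), with library weights (1.26, 0.20), or, of the 12 fits leaving out 1 library (0.97 to 1.78), in 4. P3 passed in none, and leaving out libraries gave -0.79 to 0.020 (the value 0.020, of the opposite sign, came without Dec_Y replicate 3). More entries were tested without a minimum, and fewer with cattle entries alone, which alters the adjustment; other causes were not tested.

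The number of entries passing P1 (31) was 51 with a pseudocount of 10, 14 with a minimum of 50, 3 with 6 libraries, 5 with cattle entries alone, 18 with weights and 15 to 48 leaving out libraries. In P3 (37) it was 21 with no minimum, 57 with 6 libraries, 11 with cattle entries alone, 129 with weights and 11 to 46 leaving out libraries. With cattle entries alone it was 46 in P2 (253 over all) and 41 in P4 (211 over all). For the interaction (34) it was 10 with no minimum, 16 with a minimum of 50, 0 with cattle entries alone, 13 with the replicate block and 5 to 35 leaving out libraries.

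Whether replicate numbers pair the libraries is open. Same-numbered libraries correlated at -0.062 to 0.138 in their deviations, and not every library was closest to its own number. With 3 libraries in a group this check cannot exclude pairing. With the number as a replicate block P2 was 2.69 (adjusted p = 0.0012, limma) and P4 1.33 (0.043), and P1, P3 and the interaction did not pass. For P1 and P3 the block joins a Jeryak and a yak library, so it is no pairing by animal. Under the study's criteria (log2 fold change of means 2.71 and 1.20) P2 and P4 passed. P4 did so narrowly, with an unadjusted t-test p of 0.0493 with pooled variance and 0.0498 with separate variances. P1 had smaller t-test p-values, 0.032 and 0.046, and missed only the log2 fold change of 1, at 0.93. The planned sum over several miR-2478 entries was not run, since 1 entry qualified. Depth limits most the libraries with few copies, 53 in Dec_Y replicate 2 and 82 in Jun_Y replicate 1.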

Other observations

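Entries named after miR-5100, whose sequence resembles the 3′ part of a threonine tRNA, were present with and without the CCA end. mmu-miR-5100_L+2R-1 (22 nt, no final CCA) and hsa-mir-5100-p3_1ss17TC (18 nt, ending in CCA) share a run of 16 bases. The form without CCA had norm values of 231, 150.4 and 275 in Dec_Y, against 0.381 to 3.28 in Dec_JY, 14.8 to 77.9 in Jun_JY and 21.4 to 26.4 in Jun_Y. The form with CCA was at 4.74, 8.99 and 8.39 in Dec_Y, at 1.89 to 3.11 in Dec_JY, at 19.4 to 43.2 in Jun_JY and at 0 to 41.6 in Jun_Y. In Dec_Y the form without CCA was thus the more abundant in each of the 3 libraries, while the ranges of both forms overlapped in the other 3 groups. The pair was picked after its values were seen, and the difference between the forms was not tested. No such pair of forms was in the table for miR-2478.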
